A study of Homo sapiens with 6 samples.

Results

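The genes described here are 39 genes of glycolysis and of the hypoxia response, taken by their names from the 58735 genes of the read count table. They comprised 4 regulators of the hypoxia-inducible factors, 8 hypoxia-inducible target genes, 3 collagen hydroxylases, 3 regulators of glycolytic flux, 4 transporters of glucose and lactate and 17 glycolytic enzymes. They were read in RNA-Seq libraries of MCF10A, an established and nonmalignant line of human breast epithelial cells, made 48 hours after lipid transfection. The 3 siControl libraries came from cells labeled WT that received a nontargeting control pool, and the 3 siDAB2IP libraries came from cells labeled DAB2IP knockdown that received siRNA against DAB2IP, which encodes a Ras GTPase-activating protein. Both groups grew in the same medium with horse serum, insulin, epidermal growth factor, cholera toxin and hydrocortisone, and the labels name no exposure to low oxygen. The comparison rests on 1 siRNA reagent and 1 cell line. The labels do not say whether the replicates came from separate cultures, so the p-values measure the spread between these libraries, which may be technical.

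Each library held 16353783 to 21916062 counts, and the biological coefficient of variation across libraries was 14.8%. DAB2IP itself went from 91.6 ± 13.1 CPM with siControl to 25.1 ± 2.57 CPM with siDAB2IP (SD, n = 3), and its log2 fold change was −1.86 (SE 0.13, adjusted p = 9.71e-05, edgeR). The basal keratin KRT5 was abundant in every library, at 1763 to 3879 CPM, but fell by 0.97 on the log2 scale (SE 0.13, adjusted p = 0.00223, edgeR). Of 6 basal markers 4 fell, against 7.65% of all genes tested. In a fit that blocks on the replicate number 5 fell, against 11.4%. The leukocyte markers PTPRC, CD68 and CD3E were at or under 0.232 CPM in every library, and of the luminal list ESR1, PGR and KRT19 were at or under 0.609 CPM, while KRT8 was at 133 to 167 CPM and KRT18 at 121 to 169 CPM. Some genes that also mark fibroblasts or endothelium were detected, DCN at 122 to 275 CPM and PECAM1 at 3.54 to 9.39 CPM. Of these lists COL1A1 rose and KDR fell, and DCN and PECAM1 passed as lower with the block (adjusted p = 0.0247 and 0.0499). Of 10 cell cycle markers 7 fell and 0 rose, where 7.65% of all genes tested fell (9 fell with the block, against 11.4%). DESeq2 called AURKA, MCM2, MCM5 and PCNA lower, but not MKI67, TOP2A, CCNB1, CDK1, BUB1 or PLK1 (adjusted p = 0.0539 to 0.364). Each marker passed in 0 to 3 of the 6 edgeR fits that left out 1 library. The summed level of the markers was 742 to 1027 CPM in the siControl libraries but 406, 579 and 189 CPM in siDAB2IP replicates 1, 2 and 3. In a separate proliferation assay, the study reported increased proliferation of MCF10A cells with DAB2IP knockdown. How that relates to these transcripts was not tested. In bulk RNA, fewer cells of a type and less RNA per cell cannot be told apart.

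Glycolysis splits glucose into pyruvate, and lactate dehydrogenase turns pyruvate into lactate, which monocarboxylate transporters carry out of the cell. Most steps can be run by several isoenzymes, proteins that catalyze the same reaction but are encoded by different genes and differ between tissues. When oxygen is scarce, prolyl hydroxylases no longer mark the hypoxia-inducible factor (HIF) alpha subunits for degradation, and HIF then binds a short DNA core, ACGTG or GCGTG, near genes of glycolysis, angiogenesis, pH control and mitophagy. HIF is controlled largely at the protein level, which RNA-Seq does not measure.

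To show where the genes that carry the results hold this core, promoter sequences from RefSeq (build GRCh38.p14) were searched for ACGTG and GCGTG on both strands in the 250 bases before each transcript start. CACGT and CACGC on the shown strand are the same cores read on the other strand, and CACGTG counts once for each strand. Of the 39 genes, 34 were matched, with 61 windows; NDRG1, BNIP3L, VEGFA, SLC16A1 and SLC2A3 were not. ACGTG was present in 23 of the 61 windows (37.7%), against 18.5% of all 35116 windows in the table. GCGTG was present in 32.8% of the windows, against 32.2% of all windows. Counted by gene, 20 of the 34 genes (58.8%) held ACGTG in at least 1 window, against 21.7% of 27305 genes, and 18 (52.9%) held GCGTG, against 36.2%. Genes with more windows have more chances of a match, and a match describes letters, not a bound site. EPAS1, ADM and SLC16A3 also held cores, which are not shown. The sequences below are the cores of some of the genes on which the results turn. Each is given with up to 11 bases on either side, written 5′ to 3′ with the core in capitals.
ENO2, chr12:6914451-6914477, plus strand, 118 bases before the start: cccgcgctcgtACGTGcgcctccgccg
ENO1, chr1:8878837-8878863, minus strand, 166 bases before the start: acccccctttcCACGCtactgcagccg
ENO1, chr1:8878743-8878769, minus strand, 72 bases before the start: gagctgaggggGCGTGccccggaggcg
ALDOC, chr17:28577119-28577145, minus strand, 240 bases before the start: aagtgcccggCACGTGgtaaagggatt
ALDOC, chr17:28576988-28577014, minus strand, 108 bases before the start: cgcctctgaggGCGTGgtcttgccccg
ALDOC, chr17:28576925-28576951, minus strand, 45 bases before the start: ggcatgcaggcCACGCccccggaggag
ALDOC, chr17:28576908-28576934, minus strand, 28 bases before the start: cccggaggagtCACGTagctctgcgac
PFKFB4, chr3:48556954-48556980, minus strand, 166 bases before the start: gagttgggcatGCGTGgtcggaggccg
CA9, chr9:35673899-35673925, plus strand, 18 bases before the start: cgtttccaatgCACGTacagcccgtac
CA12, chr15:63382065-63382091, minus strand, 234 bases before the start: cggatctcaccCACGCctgccagcagc
LDHA, chr11:18394367-18394394, plus strand, 185 bases before the start: gactcccagcgCACGTGgagcagtctgc
LDHA, chr11:18394465-18394492, plus strand, 87 bases before the start: agcccgactcaCACGTGggttcccgcac
LDHA, chr11:18394479-18394505, plus strand, 73 bases before the start: gtgggttcccgCACGTccgccggcccc
LDHA, chr11:18396217-18396243, plus strand, 123 bases before the start: atgcgcatgcgCACGCgcacaagttcc

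ENO2, whose transcript changed most of the 39, held a single ACGTG in its window, whereas its isoenzyme gene ENO1 held only GCGTG cores. ACGTG was also held by HK2, GAPDH, PGK1 and PDK1, whose transcripts showed no called change between the groups. Whether the kind of core goes with the change of a transcript was not tested. ALDOC held both kinds, PFKFB4 and CA12 held 1 GCGTG each, and LDHA held 2 CACGTG palindromes and a further CACGT in one window and CACGC in another. PFKP was given 4 windows, of which 1 held ACGTG and 1 held GCGTG. The ACGTG window of PFKP is shown whole, beside the window of HK2 that held 2 CACGTG palindromes and 2 GCGTG cores, because the transcripts of these genes behaved differently. Capitals mark the cores.
PFKP, chr10:3068939-3069188, plus strand: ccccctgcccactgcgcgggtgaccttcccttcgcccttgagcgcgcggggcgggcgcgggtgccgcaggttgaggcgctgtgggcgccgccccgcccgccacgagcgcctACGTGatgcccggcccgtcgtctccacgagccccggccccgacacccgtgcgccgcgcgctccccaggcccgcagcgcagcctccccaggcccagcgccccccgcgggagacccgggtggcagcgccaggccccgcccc
HK2, chr2:74834920-74835169, plus strand: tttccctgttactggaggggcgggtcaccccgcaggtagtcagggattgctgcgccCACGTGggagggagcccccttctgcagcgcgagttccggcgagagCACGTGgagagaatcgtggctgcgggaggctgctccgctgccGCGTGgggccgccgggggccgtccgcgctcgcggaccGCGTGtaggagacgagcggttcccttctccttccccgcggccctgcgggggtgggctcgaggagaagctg

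All 39 genes passed the filter on low counts and were tested among 15430 genes. With DAB2IP knockdown 4 of them rose, PFKFB4, PFKP, ALDOC and ENO2, and 3 fell, CA12, NDRG1 and SLC2A3. The 7 DEGs make up 17.9% of the 39 genes, against 14.2% of all genes tested by edgeR's quasi-likelihood test at an adjusted p under 0.05. For all genes the share was 6.55% that rose and 7.65% that fell. On GRCh38, ENO2 (ENSG00000111674) lies on chromosome 12 from 6913745 to 6923698, PFKP (ENSG00000067057) on chromosome 10 from 3066333 to 3137712, ALDOC (ENSG00000109107) on chromosome 17 from 28573115 to 28577264 and PFKFB4 (ENSG00000114268) on chromosome 3 from 48517684 to 48562015. CA12 (ENSG00000074410) lies on chromosome 15 from 63321378 to 63382161 and SLC2A3 (ENSG00000059804) on chromosome 12 from 7919230 to 7936275. The other 32 genes had log2 fold changes between −0.42 and 0.76 and did not pass the test. At an unadjusted p under 0.05, 10 of the 39 genes were higher and 4 were lower. No share of all genes was taken at this unadjusted threshold, here or below, so these counts have no background beside them. The median log2 fold change of the 39 genes was 0.05, and that of all genes tested was 0.01. For 14 of the 39 genes (35.9%) every siDAB2IP value lay outside the siControl range on one side, as it did for 35.9% of all genes tested. In this fit the shares for the 39 genes lay near those of all genes, and the results below are given gene by gene.

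The count of DEGs depended on the fit, with and without pairing of the libraries. With the replicate number as a block, 8 of the 39 genes were higher and 4 were lower (30.8%), against 21.0% of all genes. The block added EPAS1, CA9, ADM and SLC16A3 to the genes that were higher and LDHA to those that were lower. DESeq2 also called these 5 genes, without a block, at adjusted p of 0.00769 (SLC16A3) to 0.0420 (EPAS1), and its share was 30.8% of the 39 genes against 16.6% of all genes. Without siDAB2IP replicate 3, 8 genes were higher and 3 were lower (28.2%), against 16.0% of all genes called in that fit, and the 4 added genes were EPAS1, CA9, SLC16A3 and PGAM1.

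**Figure D1:**
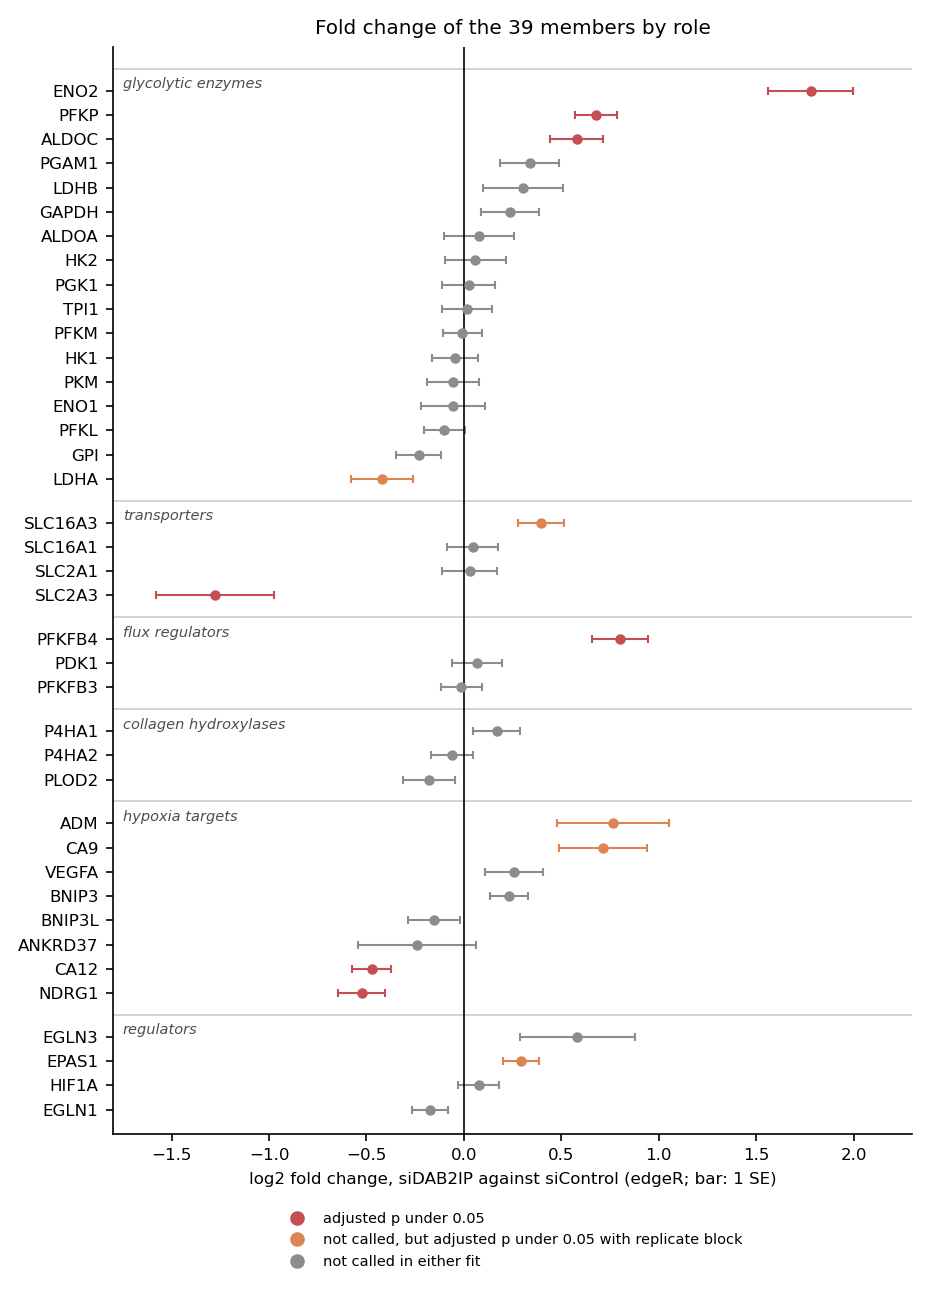
Log2 fold change (x axis) of each of the 39 genes (y axis, grouped by role), siDAB2IP against siControl, with 1 SE from edgeR (3 libraries a group). Red points passed the test, orange points passed it with the replicate block but not without it, and gray points passed in neither fit. ENO2 lies farthest right at 1.78 and SLC2A3 farthest left at −1.28, and most genes lie near 0.

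Of the genes for the HIF alpha subunits, HIF1A differed little between the groups, while EPAS1 lay near the threshold of the test. HIF1A, the subunit stabilized in most cells at low oxygen, was at 221, 242 and 212 CPM in the siControl libraries and at 239, 256 and 218 CPM in the siDAB2IP libraries, and these ranges overlap. Its log2 fold change was 0.08 (SE 0.11, adjusted p = 0.678, edgeR). EPAS1, which encodes the alpha subunit HIF-2α, was at 172, 170.1 and 165 CPM in the siControl libraries and at 200.2, 213 and 208 CPM in the siDAB2IP libraries. Every siDAB2IP library was above every siControl library, but the log2 fold change of 0.29 (SE 0.09) had an adjusted p of 0.0564, and 0.0407 with the replicate block. EGLN1 and EGLN3 encode prolyl hydroxylases that act on the alpha subunits, and EGLN3 is itself induced by HIF. EGLN1 had a log2 fold change of −0.18 (SE 0.09) and EGLN3 of 0.58 (SE 0.29), with adjusted p = 0.239 and 0.216 from edgeR. EGLN3 was low in all libraries, at 1.82 to 5.22 CPM. A list of 15 further genes of HIF control, among them ARNT, VHL and HIF1AN, held 14 tested genes. Of these, edgeR and DESeq2 each called 0, against 14.2% and 16.6% of all genes, and 2 had an unadjusted p under 0.05.

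Of the 8 hypoxia targets, 2 fell and 0 rose in the reported fit, which is 25% against 14.2% of all genes. CA9 and ADM passed as higher under the replicate block, which called 50% of the targets against 21.0% of all genes. CA12 and CA9 both encode membrane carbonic anhydrases with an extracellular active site, which convert carbon dioxide and bicarbonate at the cell surface. CA12 was at 451, 477 and 465 CPM in the siControl libraries and at 315, 334 and 355 CPM in the siDAB2IP libraries. The groups did not overlap, and CA12 fell by 0.47 on the log2 scale (SE 0.10, adjusted p = 0.0146, edgeR), to 0.72 of its control level. This call was lost without siControl replicate 2 (adjusted p = 0.0737) or without siDAB2IP replicate 1 (adjusted p = 0.0605). CA9, a widely used marker of hypoxia, was at 16.4, 18.7 and 11.1 CPM in the siControl libraries and at 29.6, 28.2 and 18.2 CPM in the siDAB2IP libraries. The highest control and the lowest knockdown library of CA9 crossed, but within each replicate number the siDAB2IP library was the higher. CA9 had a log2 fold change of 0.71 (SE 0.23, adjusted p = 0.0616, edgeR) without the block and an adjusted p of 0.00462 with it. Of the exon bases of CA9, 38.5% lie opposite ARHGEF39, so part of the CA9 counts could belong to that gene if the strand was not used in counting.

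NDRG1, a stress-responsive gene induced by hypoxia, was at 397, 400.1 and 358 CPM in the siControl libraries and at 279, 295 and 229 CPM in the siDAB2IP libraries. It fell by 0.52 on the log2 scale (SE 0.12, adjusted p = 0.0196, edgeR) with no overlap of the groups. The adjusted p was 0.0532 without siControl replicate 1 and 0.0760 without siControl replicate 2. ADM, which encodes the vasodilator peptide adrenomedullin, was at 18.1, 16.9 and 20.8 CPM in the siControl libraries and at 19.1, 26.4 and 49.1 CPM in the siDAB2IP libraries. siDAB2IP replicate 3 stood far above the controls, and replicate 1 lay within their range. ADM had a log2 fold change of 0.76 (SE 0.29) with an adjusted p of 0.103, and of 0.67 with an adjusted p of 0.0400 under the block (edgeR). Without siDAB2IP replicate 3 the log2 fold change of ADM was 0.30, and without siDAB2IP replicate 1 it was 1.02 and passed (adjusted p = 0.0257).

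VEGFA, the angiogenic growth factor, was at 534, 535 and 392 CPM in the siControl libraries and at 668, 546 and 533 CPM in the siDAB2IP libraries. Its groups overlapped, and the log2 fold change was 0.26 (SE 0.15, adjusted p = 0.28, edgeR). BNIP3 and BNIP3L encode mitophagy receptors of the outer mitochondrial membrane, and their log2 fold changes were 0.23 (SE 0.10) and −0.15 (SE 0.13), neither of which passed the test. ANKRD37, an ankyrin repeat gene, was at 2.38 to 4.92 CPM across the libraries, with a log2 fold change of −0.24 (SE 0.30). Of its exon bases 35.2% lie opposite UFSP2, so the strand limit given for CA9 holds here too. P4HA1, P4HA2 and PLOD2 encode hydroxylases that modify proline and lysine in collagen. In this group edgeR and DESeq2 each called 0 of the 3 genes, against 14.2% and 16.6% of all genes, and 0 had an unadjusted p under 0.05. P4HA1 had a log2 fold change of 0.17 (SE 0.12) and PLOD2 of −0.18 (SE 0.13).

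**Figure D2:**
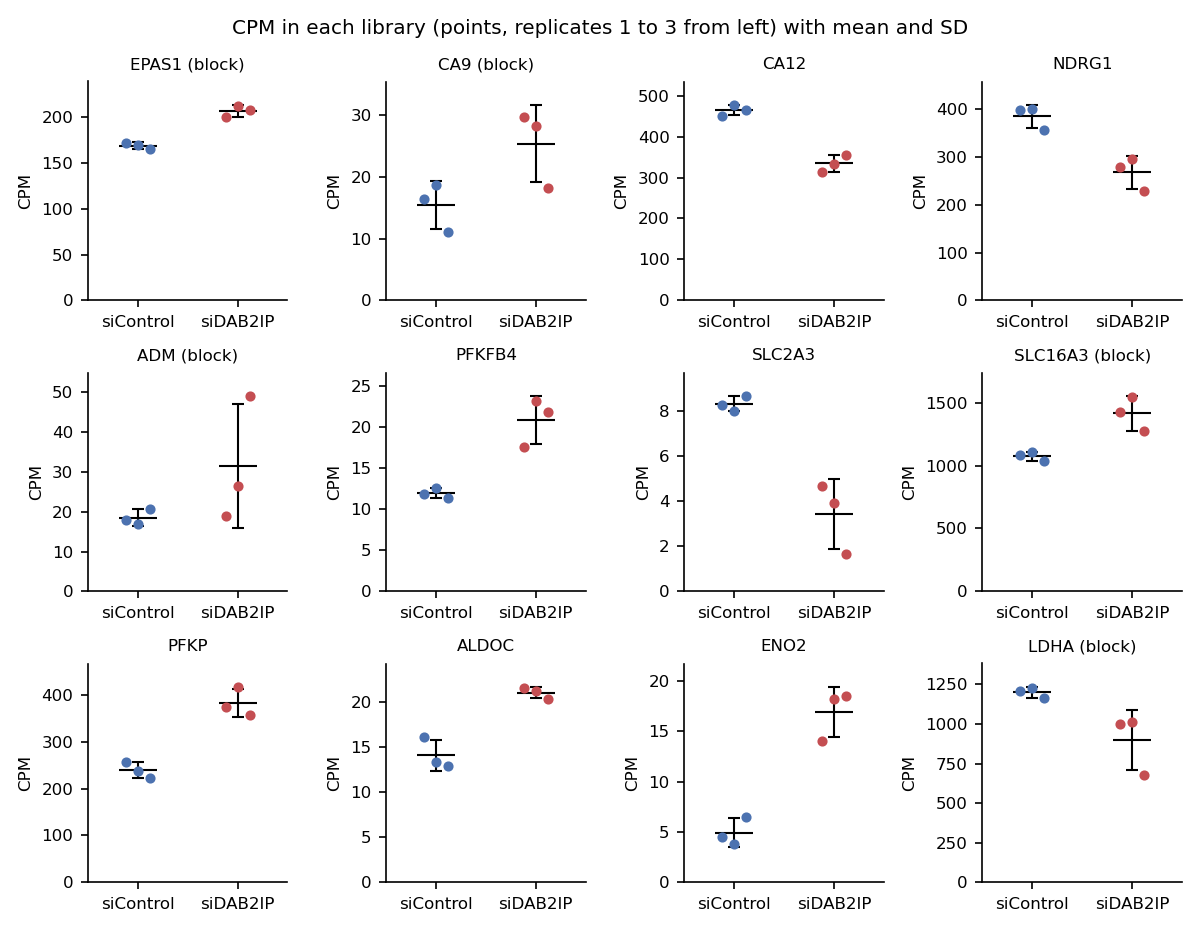
CPM (y axis, from 0) of the 7 DEGs and of the 5 genes that passed with the replicate block but not without it, in each of the 6 libraries (points, replicates 1 to 3 from the left), with mean and SD (bars, n = 3). The groups are apart for all 7 DEGs, while CA9 and ADM overlap.

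Of the regulators of glycolytic flux, PFKFB4 rose. PFKFB4 and PFKFB3 encode enzymes that make and break down fructose 2,6-bisphosphate, the allosteric activator of phosphofructokinase. PFKFB4 was at 11.9, 12.6 and 11.4 CPM in the siControl libraries and at 17.5, 23.2 and 21.9 CPM in the siDAB2IP libraries. The groups were well apart, with a log2 fold change of 0.80 (SE 0.15, adjusted p = 0.00758, edgeR) or a 1.74-fold rise. It passed the test in 6 of 6 fits that each left out 1 library. PFKFB3, which is the more abundant at 51.6 to 62.2 CPM, and PDK1, the kinase that shuts off pyruvate dehydrogenase, were among 15 genes whose log2 fold changes lay between −0.10 and 0.08, with adjusted p of at least 0.568. PFKFB2, which was not among the 39 genes and belongs to the same family, rose by 0.69 on the log2 scale (SE 0.13, adjusted p = 0.0102, edgeR), a call lost without siControl replicate 2 (adjusted p = 0.0643).

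The glucose transporters differed from each other. SLC2A1, which encodes GLUT1, was at 268, 243 and 205 CPM in the siControl libraries and at 272, 258 and 200.5 CPM in the siDAB2IP libraries, almost the same range. Its log2 fold change was 0.03 (SE 0.14, adjusted p = 0.919, edgeR). SLC2A3, which encodes the high-affinity transporter GLUT3, was at 8.29, 8.03 and 8.69 CPM in the siControl libraries and at 4.68, 3.93 and 1.68 CPM in the siDAB2IP libraries. It fell in every siDAB2IP library, by 1.28 on the log2 scale (SE 0.30, adjusted p = 0.0223, edgeR), to 0.413 of its control level. Leaving out any 1 of the siControl libraries brought its adjusted p to between 0.0615 and 0.0689. Per length, GLUT3 transcripts were rare beside GLUT1 transcripts, with 1.34 ± 0.0509 FPKM against 50.1 ± 6.69 FPKM (SD, n = 3) in the siControl libraries. The SLC2A3 share of their sum was 2.65 ± 0.445% in the siControl and 1.03 ± 0.349% in the siDAB2IP libraries (SD, n = 3).

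The lactate exporter SLC16A3 (MCT4) was at 1083, 1107 and 1035 CPM in the siControl libraries and at 1424, 1548 and 1272 CPM in the siDAB2IP libraries. All siDAB2IP libraries were above all siControl libraries. The log2 fold change of 0.40 (SE 0.12) had an adjusted p of 0.0529, and of 0.0268 with the replicate block (edgeR). SLC16A1 (MCT1), which carries lactate in either direction, was at 497 to 552 CPM in the siControl and at 447 to 616 CPM in the siDAB2IP libraries.

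Of the 17 glycolytic enzymes, 3 rose and 0 fell, a called share of 17.6% against 14.2% of all genes. At an unadjusted p under 0.05, LDHA was lower, and DESeq2 called it lower with an adjusted p of 0.0394. The 3 genes that rose encode isoenzymes of a step that other genes of the list also encode. The same holds for HK1, HK2, PFKL, PFKM, ALDOA, ENO1, LDHA and LDHB, none of which rose in this fit. ENO2, the enolase best known from neurons, was at 4.55, 3.76 and 6.52 CPM in the siControl libraries and at 14.0, 18.2 and 18.5 CPM in the siDAB2IP libraries. The lowest siDAB2IP library lay above the highest siControl library, and ENO2 rose 3.43-fold, by 1.78 on the log2 scale (SE 0.22, adjusted p = 0.00147, edgeR). It passed the test in 6 of 6 fits that left out 1 library. ENO1, the enolase found in most tissues, was at 1899, 1805 and 1631 CPM in the siControl libraries and at 1868, 1957 and 1308 CPM in the siDAB2IP libraries, overlapping ranges. ENO2 thus made up 0.347 ± 0.125% of enolase transcript in the siControl and 1.25 ± 0.412% in the siDAB2IP libraries (SD, n = 3; FPKM), and the sum of both enolases was 335 ± 25.3 and 325 ± 65.9 FPKM.

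PFKP, the platelet type of phosphofructokinase, was at 256, 238 and 222 CPM in the siControl libraries and at 373, 416 and 358 CPM in the siDAB2IP libraries. It rose 1.6-fold with no overlap of the groups, by 0.68 on the log2 scale (SE 0.11, adjusted p = 0.0045, edgeR), and passed in 6 of 6 fits that left out 1 library. PFKL and PFKM, the liver and muscle types, were among the 15 genes near 0. The summed level of the 3 genes was 99.2 ± 6.08 FPKM in the siControl and 127 ± 6.35 FPKM in the siDAB2IP libraries (SD, n = 3; exact permutation p = 0.1, the smallest that 3 libraries against 3 allow). PFKP made up 49.3 ± 0.520% of this sum in the siControl and 61.7 ± 2.09% in the siDAB2IP libraries, while the share of PFKL went from 23.8 ± 1.23% to 17.4 ± 0.531% and that of PFKM from 26.9 ± 1.42% to 20.9 ± 2.15% (SD, n = 3).

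ALDOC, the aldolase best known from brain, was at 16.1, 13.4 and 12.9 CPM in the siControl libraries and at 21.5, 21.2 and 20.4 CPM in the siDAB2IP libraries. The groups did not overlap, and ALDOC rose 1.49-fold, by 0.58 on the log2 scale (SE 0.13, adjusted p = 0.0205, edgeR). Its call was lost in 3 of 6 fits that left out 1 library, namely siControl replicate 2 (adjusted p = 0.110), siControl replicate 3 (adjusted p = 0.0860) and siDAB2IP replicate 1 (adjusted p = 0.0604). ALDOA, the aldolase of muscle and most other tissues, had only 9.19 to 13.6 CPM in these libraries. Of its exon bases 42.3% are shared on the same strand with the overlapping gene AC093512.2, and how reads in shared exons were counted is not given in the sources used here, so its level cannot be read from this table. The same limit holds for LDHB, of whose exon bases 33.4% are shared on the same strand with AC010197.2.

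LDHA, the lactate dehydrogenase subunit that HIF induces, was at 1211, 1226 and 1161 CPM in the siControl libraries and at 1002, 1010.5 and 677 CPM in the siDAB2IP libraries. All siDAB2IP libraries were below all siControl libraries, replicate 3 by far. The log2 fold change of −0.42 (SE 0.16) had an adjusted p of 0.104, and of 0.0370 with the replicate block (edgeR). In the 6 fits that left out 1 library LDHA passed in 0, and without siDAB2IP replicate 3 its log2 fold change was −0.25. PGAM1, the phosphoglycerate mutase, had a log2 fold change of 0.34 (SE 0.15, adjusted p = 0.163), which passed only without siDAB2IP replicate 3 (adjusted p = 0.0464). GAPDH, often used as a reference transcript, was at 855 to 1147 CPM in the siControl and at 1041 to 1361 CPM in the siDAB2IP libraries, with a log2 fold change of 0.24 (SE 0.15, adjusted p = 0.323, edgeR). GPI, which interconverts glucose 6-phosphate and fructose 6-phosphate, had one of −0.23 (SE 0.12, adjusted p = 0.214). The other 9 enzymes, HK1, HK2, PFKL, PFKM, ALDOA, TPI1, PGK1, ENO1 and PKM, lay between −0.10 and 0.08.

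**Figure D3:**
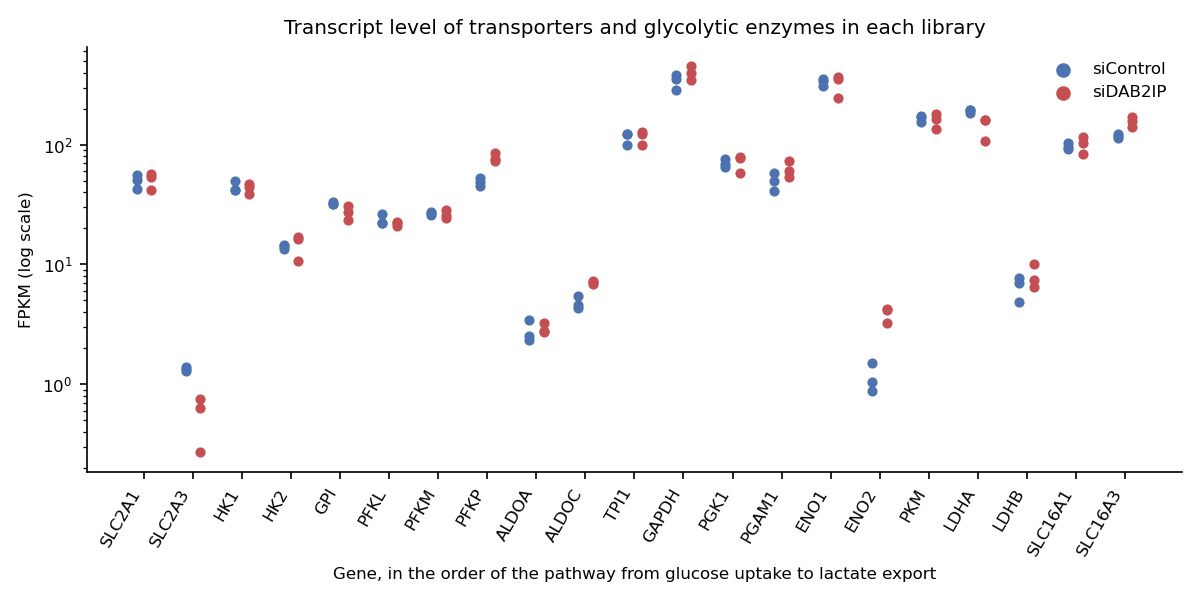
FPKM (y axis, log scale) of the transporters and enzymes in the order of the pathway (x axis), in each siControl (blue) and siDAB2IP (red) library. GAPDH and ENO1 are highest, at a mean of 338 and 334 FPKM in the siControl libraries, and ENO2 and SLC2A3, whose groups are far apart, are lowest in the siControl libraries.

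The enzymes were expressed at very different levels per length. In the siControl libraries GAPDH was at 338 ± 49.6 FPKM and ENO1 at 334 ± 25.6 FPKM, levels that did not differ beyond their spread. LDHA followed at 191 ± 5.79 FPKM, PKM at 166 ± 10.1 FPKM and TPI1 at 115 ± 13.1 FPKM (SD, n = 3). Leaving aside ALDOA and LDHB for their shared exons, ENO2 was the lowest enzyme, at 1.14 ± 0.327 FPKM in the siControl and 3.90 ± 0.567 FPKM in the siDAB2IP libraries (SD, n = 3). The summed level of the 15 enzymes other than ALDOA and LDHB was 1461 ± 122 FPKM in the siControl and 1494 ± 219 FPKM in the siDAB2IP libraries (SD, n = 3; two-sided exact permutation p = 0.9). ENO2 and ALDOC were minor parts of this sum in both groups.

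The siDAB2IP libraries differed among themselves. Replicate 3 was the lowest siDAB2IP library for 13 of the 17 enzymes and for 28 of the 39 genes. It was the lowest of all 6 libraries for 9 of the 17 enzymes. No such counts were taken over all genes tested, so whether they are particular to these genes cannot be read from them. Relative to the mean of the controls, the median enzyme was at 0.07, 0.18 and −0.15 on the log2 scale in siDAB2IP replicates 1, 2 and 3, and at 0.09, 0.02 and −0.10 in the siControl replicates. Among the controls, too, replicate 3 was the lowest. The 10 cell cycle markers were lowest in the same siDAB2IP library, with medians of −0.96, −0.42 and −2.14 relative to the controls, and their part in these values was not tested.

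**Figure D4:**
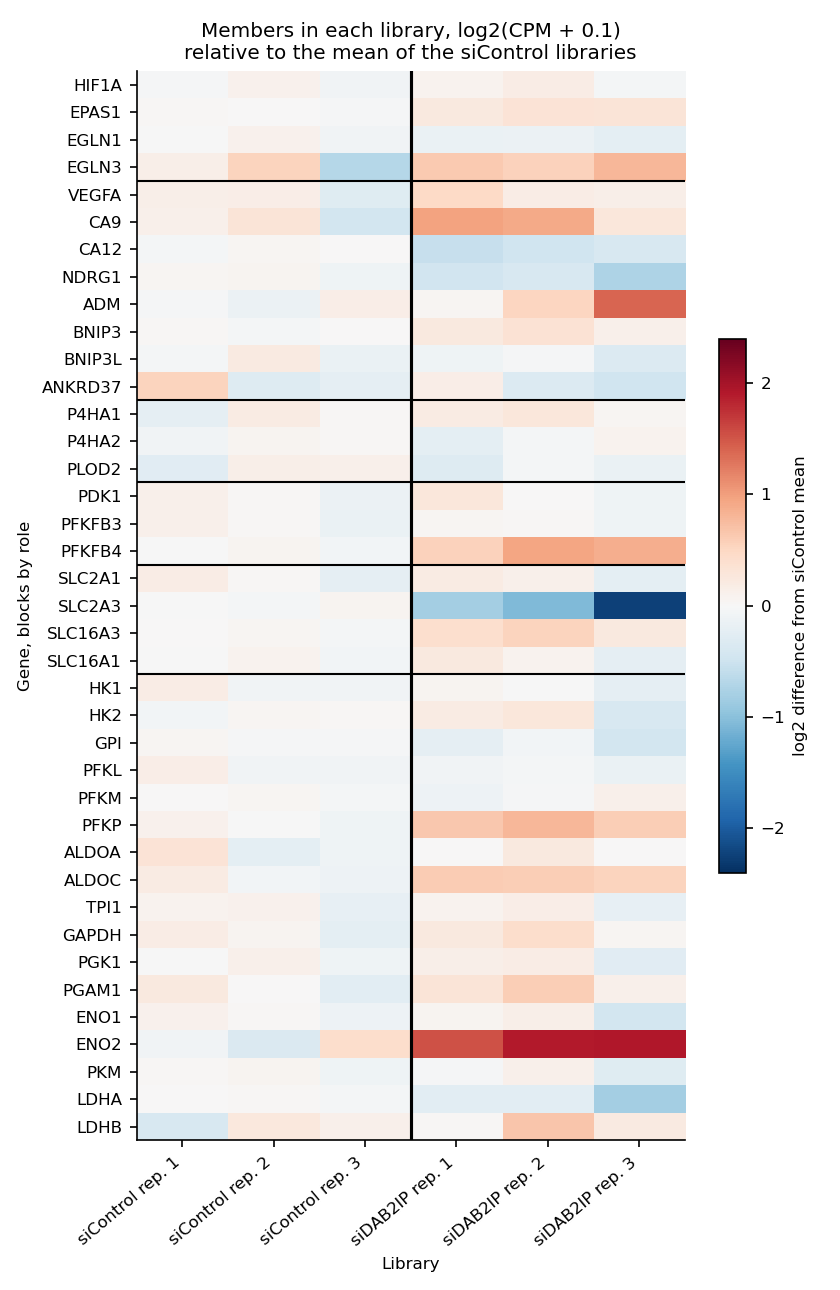
Difference of log2(CPM + 0.1) from the mean of the siControl libraries (color) for the 39 genes (rows, in blocks by role) in each library (columns). ENO2 and PFKP are red and SLC2A3 and CA12 blue in all 3 siDAB2IP libraries, whereas ADM is deep red in replicate 3 only.

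To ask whether isoenzymes and partner genes changed relative to each other, the ratio of their FPKM was taken within each library for 10 pairs, which does not depend on the scaling between libraries. The ratio of ENO2 to ENO1 differed most, by 1.88 on the log2 scale or 3.67-fold. That of PFKP to PFKL was higher by 0.78, that of SLC16A3 to SLC16A1 by 0.36, and that of EPAS1 to HIF1A by 0.22. The ratio of CA12 to CA9 was lower by a log2 difference of −1.19, and that of SLC2A3 to SLC2A1 by one of −1.43. The ratios of ALDOC to ALDOA (0.49) and of LDHA to LDHB (−0.75) carry the limit on shared exons given above, and that of CA12 to CA9 the strand limit given for CA9. For these 8 pairs the groups did not overlap, and each gave the smallest possible two-sided exact permutation p, 0.1 (0.125 adjusted over 10 pairs). Of single genes tested 35.9% did not overlap either, and ENO2, PFKP, ALDOC, CA12 and SLC2A3 were DEGs by themselves. No such share was taken for ratios of other genes. The ratios of HK2 to HK1 and of PFKM to PFKL differed by 0.08 and 0.09, with an exact permutation p of 0.6.

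**Figure D5:**
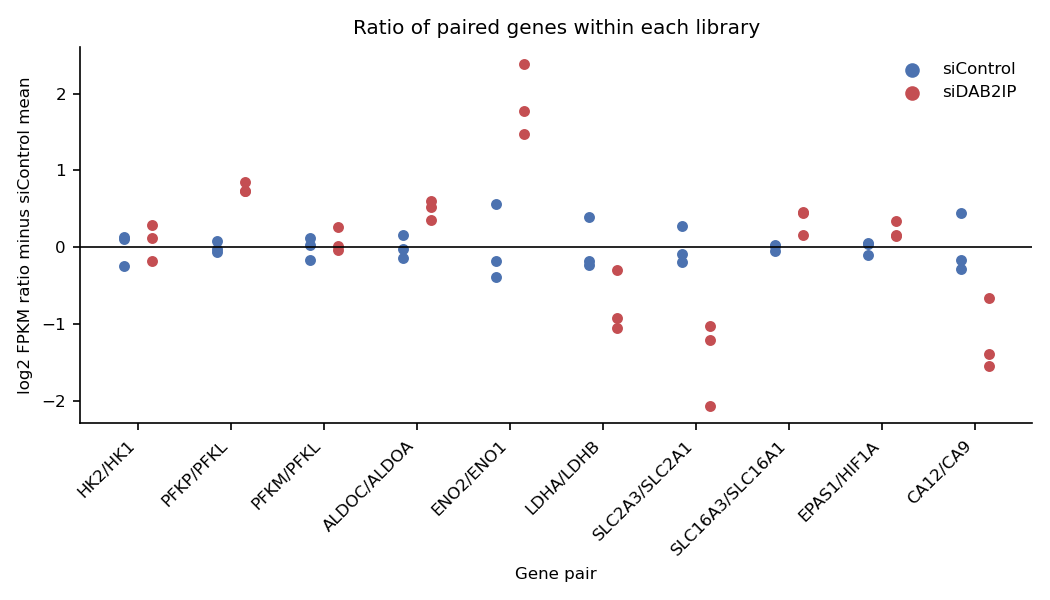
Log2 ratio of FPKM of the paired genes in each library, minus the siControl mean (y axis), for 10 pairs (x axis), siControl in blue and siDAB2IP in red (3 libraries each). The groups are apart for 8 pairs and overlap for HK2/HK1 and PFKM/PFKL.

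Other genes of these pathways, from lists set with the earlier results known, were read beside the 39. Of 30 further hypoxia-inducible genes, 29 were tested, 4 rose and 2 fell, which is 20.7% against 14.2% of all genes, or 20.7% against 21.0% with the replicate block. ANGPTL4, an inhibitor of lipoprotein lipase, was at 78.0, 92.9 and 74.4 CPM in the siControl libraries and at 246, 291 and 260.1 CPM in the siDAB2IP libraries. These values are far apart, and ANGPTL4 rose by 1.70 on the log2 scale (SE 0.12, adjusted p = 9.71e-05, edgeR). FAM162A rose by 0.50 (SE 0.10) and HMOX1, the heme oxygenase, by 2.53 (SE 0.52). HMOX1 was at 6.94, 7.86 and 29.6 CPM in the siDAB2IP libraries and at 2.31 to 2.79 CPM in the siControl libraries, so siDAB2IP replicate 3 stood apart, and the log2 fold change without it was 1.54. Its call was lost without any 1 of the siControl libraries (adjusted p = 0.0518 to 0.0589), and that of FAM162A without siControl replicate 2 (adjusted p = 0.0503). LOX, which crosslinks collagen, fell by 1.47 (SE 0.17), and ZNF395 fell by 1.32 (SE 0.15) on the log2 scale.

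Of 32 further genes of glucose and pyruvate metabolism, 22 were tested, 2 rose and 4 fell, which is 27.3% against 14.2% of all genes. With the replicate block PDK4, a kinase of pyruvate dehydrogenase, also passed as lower (adjusted p = 0.0427), which made 31.8% against 21.0% of all genes. PFKFB2 and PGM2 rose, PGM2 by 0.40 on the log2 scale (SE 0.11). PGM1, a phosphoglucomutase that links glycogen to glycolysis, fell by 0.87 (SE 0.11), PC, the pyruvate carboxylase, fell by 0.82 (SE 0.14), DLAT, a subunit of pyruvate dehydrogenase, fell by 0.65 (SE 0.15) and PDP1, the phosphatase that activates it, fell by 0.50 (SE 0.13). When 1 library was left out, PGM2 passed only without siDAB2IP replicate 2 (adjusted p up to 0.154 otherwise) and PDP1 only without siDAB2IP replicate 2 or 3 (up to 0.110). The call of DLAT was lost without siControl replicate 2 or 3 (up to 0.0660).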

How the data were processed

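RNA was sequenced from 6 MCF10A libraries, 3 siControl and 3 siDAB2IP. Per the labels, the submitters' processing notes name STAR 2.6.1d, featureCounts 1.5.0-p3, DESeq2 1.20.0, edgeR 3.24.3 and the build hg38. The authors deposited counts per gene and library, whole numbers without normalization, and FPKM values, for which each count was divided by gene length and by a scaled library total (98.9% to 104.7% of the count total). Whether strand was used in counting is not given in the sources used here. A count of 3, the limit that a count of 0 allows, was 0.137 to 0.183 CPM by library total, before TMM scaling, and covers counting error only.

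The groups were compared by the quasi-likelihood test of edgeR 4.0.16 in R 4.3.3, on genes kept by filterByExpr and with TMM scaling, and p-values were adjusted over the 15430 genes by the Benjamini-Hochberg method (threshold 0.05). CPM values are TMM-scaled, and standard errors were derived from the F statistic. FPKM served for levels between genes, shares and ratios, which were compared with two-sided exact permutation tests. Exons shared with other genes were read from GENCODE release 29. The scripts were tested on simulated data. The 39 genes and all lists were chosen with earlier results of these data known. The 7 DEGs, HIF1A, EPAS1, VEGFA and SLC2A1 were to be given in every library and the other members by fold change or range; library values of CA9, ADM, SLC16A3, LDHA and ENO1 were added after their values were seen. Of the other lists the called genes are named, except 2 genes that are not reported here, and SLC16A1, GAPDH, EGLN3, ANKRD37, ALDOA and PFKFB3 are given as ranges.

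Replicate numbers 1 to 3 occur in both groups' labels, and the library names share a letter within each number. After subtraction of group means, log2 CPM (prior count 2) correlated across genes at 0.265, 0.155 and 0.255 for libraries with the same number and at −0.278 to 0.0207 for different numbers, and equal numbers were therefore treated as pairs, which is an inference from the data. The fit without the block is the one reported. Alternatives were DESeq2 1.42.0, its size factors in edgeR, library size only, no filter, at least 10 counts in every library, the replicate block, limma 3.58.1 on log2(FPKM + 1) and log2(FPKM + 0.1) for genes with a mean of at least 1 FPKM, pseudogene counts added to their parent genes, and leaving out each library. Columns of other samples were not present.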

Additional observations from a re-analysis of the deposited data

How the results depend on the processing

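The number of DEGs among all genes was 2192 in the reported fit, 3233 with the replicate block, 1417 with limma on log2(FPKM + 0.1), and 723 (without siControl replicate 2) to 2524 (without siDAB2IP replicate 3) when 1 library was left out. Of the 39 genes 4 were higher in the reported fit, but 8 with DESeq2, 7 with library size only, 7 without a filter, 8 with the replicate block and 3 to 8 when 1 library was left out. The share of all genes that were higher was 6.55% in the reported fit, 7.37% with DESeq2, 7.84% with library size only, 4.21% without a filter (of 29567 genes, many at low counts), 9.59% with the block and 1.67% to 7.44% when 1 library was left out. The 3 genes that were lower numbered 0 to 3 when 1 library was left out. The edgeR count was 1 without siControl replicate 1 and 0 without siControl replicate 2, where 3 were lower at an unadjusted p under 0.05. Of all genes 7.65% were lower in the reported fit, 4.74% without siControl replicate 1 and 2.90% without siControl replicate 2. The 7 DEGs were followed through 103 alternative values, of which 93 kept direction and call, 10 lost the call and 0 reversed. For 19 other members 23 of 283 values passed the threshold and 4 reversed. The 13 members with log2 fold changes nearest 0, which are given by range, were not in this tally. Their log2 fold changes lay between −0.164 and 0.239 when 1 library was left out, so their directions are not settled. The 17 DEGs of the other lists kept direction and call in 225 of 255 values and lost the call in 30. The reversals among the values followed all came from leaving out 1 library. ANKRD37 then ranged from −0.464 to 0.0560, SLC2A1 from −0.0869 to 0.152, the log2 ratio difference of HK2/HK1 from −0.0393 to 0.206 and that of PFKM/PFKL from −0.00592 to 0.149, and the cause was not tested. Besides EPAS1, CA9, ADM, SLC16A3 and LDHA, the replicate block changed no call of the 39 genes. In the other lists it added PDK4, OGDH, TP63, DCN, PECAM1, CCNB1 and PLK1 and ended no call. SLC2A3 and EGLN3 had a mean under 1 FPKM and were not in the limma fits. With 3 libraries a group and a coefficient of variation of 14.8%, small differences may go undetected.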

Other observations

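Genes of the routes that branch from glycolysis or follow it also held DEGs in both directions. H6PD, a pentose phosphate enzyme of the endoplasmic reticulum, was at 145, 116 and 103 CPM in the siControl and at 97.7, 69.1 and 48.5 CPM in the siDAB2IP libraries. It fell by 0.76 on the log2 scale (SE 0.22, adjusted p = 0.0467, edgeR), and its adjusted p ranged from 0.0103 to 0.139 when 1 library was left out, with the call lost without any 1 of the siControl libraries or siDAB2IP replicate 2.

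All 20 genes of the tricarboxylic acid cycle list were tested, and 1 rose and 2 fell, a share near the 14.2% of all genes that were called. OGDH, a subunit of the oxoglutarate dehydrogenase complex, passed as higher with the replicate block (adjusted p = 0.0449), but not without it (0.0696). Of the 3 called genes, 2 encode subunits of the same enzyme, isocitrate dehydrogenase 3. IDH3A, its catalytic subunit, was at 32.2, 33.9 and 31.5 CPM in the siControl and at 21.4, 16.9 and 19.4 CPM in the siDAB2IP libraries and fell by 0.76 on the log2 scale (SE 0.12, adjusted p = 0.00499, edgeR). IDH3G, a regulatory subunit, was at 39.1, 33.4 and 32.6 CPM in the siControl and at 46.3, 44.1 and 49.9 CPM in the siDAB2IP libraries and rose by 0.42 (SE 0.11, adjusted p = 0.0338, edgeR). The groups were apart for both genes, but the call of IDH3G was lost without siControl replicate 2 or 3 or siDAB2IP replicate 1 (adjusted p up to 0.159). ACO1, the cytosolic aconitase that also acts as an iron-regulatory protein, fell by 0.53 on the log2 scale (SE 0.09, adjusted p = 0.00609, edgeR).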
